A study of Arabidopsis thaliana with 37 samples.

Results

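The comparison described here is between 3 arrays of ago1-10 seedlings aged 21 days and 4 arrays of ago1-10 seedlings aged 9 days, which are 7 of the 37 Arabidopsis thaliana arrays in the study. The members were chosen by the background and the age in the sample labels, and the question was which of the age changes seen in wild type were kept, lost or reversed in the mutant. ago1-10 is an allele of ARGONAUTE1. The normal age change was taken from 2 wild types. Ler was measured on 3 arrays at 9 days and on 3 arrays of the set labelled Ler (1) at 21 days, and Col was measured on 3 arrays at each age. A second allele, ago1-11, was measured on 4 arrays at 9 days and 3 at 21 days, and 3 further ago1-10 arrays were taken at 35 days. The ago1-11 arrays at 9 days belong to strain lines MR51, MR53, MR54 and MR57, 1 each, and those at 21 days all to MR57. Another 21-day wild-type set, labelled Ler (2), has 4 arrays and served as an alternative to Ler (1), and 4 arrays of dcl1-9, a mutant of the microRNA-processing enzyme DICER-LIKE1, at 21 days entered the model only for its estimate of the spread. All samples were total RNA of seedlings with no treatment named, and the labels give no accession for the mutants. At 9 days ago1-10 replicates 1 to 3 belong to strain line MR44 and replicate 4 to line MR49, the line of all the 35-day arrays, whereas the 3 arrays at 21 days are line MR44. The 21-day replicate 3 carries the number 3 in its title where the other 21-day titles of this line carry 2, and counts without it are given below.

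ARGONAUTE1 is the protein through which most plant microRNAs act. It holds a microRNA and cuts, or blocks the translation of, messenger RNAs with a matching site, many of which encode regulators of leaf polarity, growth and phase change. Between the first and the third week a rosette plant passes from a seedling with few leaves to an expanding rosette, so an age comparison of whole seedlings holds changes in tissue makeup as well as in expression within cells.

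Values are linear signals, scaled so that every array has the same median of 19.1, and an age change is the difference of mean log2(signal + 1.1) between 21 and 9 days. A positive value is a higher level at 21 days. Calls were made where the adjusted p (Benjamini-Hochberg, over all tested probe sets) lay under 0.05 in 1 limma model of all 37 arrays, fitted to the 6048 of 8247 probe sets above 12 on at least 3 arrays. Signals under 12 are near background, and the size of a difference from such a level depends on the constant added. Of the tested probe sets 2660 have 1 annotated gene and the others stay unnamed. Before scaling, array medians ran from 11.3 to 30.2, and after it, arrays of the same ago1-10 age correlated at 0.938 to 0.958 (9 days), 0.918 to 0.951 (21 days) and 0.861 to 0.927 (35 days) on the log2 scale. No annotated probe set matched AGO1, so the mutated gene was not followed.

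Markers showed green tissue in every group and a summed root signal that differed between the ages in wild type. The 4 green markers (LHCB4.1, RCA, PSAE-1 and PORB) were all measured, and their summed signal was 7843 to 10130 in ago1-10 at 9 days and 5191 to 7920 at 21 days. In Ler the green sum was 15301 to 20211 at 9 days and 13978 to 14699 at 21 days. In Col it was 10434 to 12856 and 11379 to 18102. Of 6 root markers 4 were measured (BGLU21, JAL31, JAL34 and NAI1). Their sum was 1258 to 2340 in ago1-10 at 9 days and 949 to 2581 at 21 days. In Ler the root sum was 1390 to 2539 at 9 days and 252 to 841 at 21 days, and in Col it was 624 to 813 and 159 to 266. The root sums of the ages did not overlap in either wild type, with the lower sums at 21 days, and overlapped in the mutant. BGLU21 and JAL34 made up most of these sums. In Ler the ages were apart for each of the 4 markers. In Col they overlapped for JAL31 (52.6 to 90.5 at 9 days and 24 to 60.4 at 21 days) and NAI1 (12.9 to 16.3 and 9.76 to 19). Of 6 flower and pollen markers 3 were measured, with sums of 104 to 201 over the 7 ago1-10 arrays. ROXY1, a flower glutaredoxin, lay between 1.29 and 13.5 on those arrays. None of the 4 embryo markers has a named probe set here. Fewer cells of a type and less RNA per cell cannot be told apart in whole seedlings, and the part that tissue makeup plays in the results below was not tested.

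The mutant changed with age in 597 probe sets, which is 9.87% of those tested. Of these 261 were higher at 21 days (4.32% of those tested) and 336 lower (5.56%), and 401 changed at least 2-fold (6.63%), 197 of them higher and 204 lower. Ler changed in 404 probe sets (6.68%), with 2.41% of all tested higher and 4.27% lower, and Col in 188 (3.11%), with 1.82% higher and 1.29% lower. The 3 later arrays lay wholly above or wholly below the 4 earlier arrays in 1227 probe sets, 20.3% of those tested. The count of 597 was 555 without 21-day replicate 3, 456 without the MR49 array at 9 days, 386 without 9-day replicate 3 and 348 without 21-day replicate 2.

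AMY1, a secreted alpha-amylase that degrades starch, read 0.739, 2.50, 1.10 and 4.70 on the 4 arrays at 9 days and 44, 83.3 and 39.9 at 21 days. All 3 later arrays were high and the earlier ones were near background, so the age change of 4.15 (SE 0.63, adjusted p = 3e-05) shrank to 1.93 with 16 in place of 1.1 added. AMY1 did not pass in Ler (0.80) or Col (-0.19), and the difference between the mutant and the mean of the wild types was 3.85 (SE 0.79, adjusted p = 0.0029).

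AT2G43570, a chitinase gene with the symbol CHI, read 81.6, 25.8, 23.0 and 84.8 at 9 days and 278, 518 and 235 at 21 days. The groups did not overlap, and the age change was 2.81 (SE 0.53, adjusted p = 0.00059). Its difference from wild type was 2.49 (adjusted p = 0.020). AT2G25450 encodes a dioxygenase of glucosinolate side-chain modification. It read 22.7, 7.97, 11.6 and 7.02 at 9 days and 213, 284 and 51.8 at 21 days, an age change of 3.60 (SE 0.47, adjusted p = 2.9e-06). Col held this gene at 888 to 1269 at both ages. Ler read 14.9 to 38.5 at 9 days and 26.2 to 95.9 at 21 days in Ler (1), but 248 to 565 in Ler (2), so its level differed between the wild types and between both Ler sets. With Ler (2) in place of Ler (1) its difference from wild type (2.97, adjusted p = 0.0024) was 1.67 and no longer passed (adjusted p = 0.069).

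Some of the highest genes started far below wild type at 9 days and came near it by 21 days. AT1G23130, which encodes a protein of the Bet v 1 and major latex protein family, read 70.1, 19.2, 27.1 and 53.6 at 9 days and 410, 351 and 283 at 21 days. Ler held it at 294 to 460 at 9 days and 399 to 721 at 21 days. The mutant mean was 3.96 below the mean of the wild types (log2) at 9 days and 0.99 below at 21 days. Its age change of 3.16 (SE 0.34, adjusted p = 1e-07) differed from that of wild type by 2.97 (adjusted p = 6.5e-05). AT2G33850 did likewise, with 86.8, 21.4, 25.2 and 50.7 at 9 days and 443, 228 and 294 at 21 days (2.94, adjusted p = 3.3e-06), against 96.3 to 136 at 9 days in Ler and, at 21 days, 248 to 276 in Ler (1) and 81.9 to 102 in Ler (2).

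JAL23, a jacalin-related lectin, had the largest age change, 4.51 (SE 0.76, adjusted p = 0.00016). It read 0.422, 0.464, 1.95 and 1.54 at 9 days and 11.8, 30.4 and 264 at 21 days. Replicate 3 stood far above the other later arrays, and all earlier values were near background, so with 16 added the change was 2.06. Without that array its difference from wild type (3.91, adjusted p = 0.011) was no longer called. HIS1-3, AT5G06730, AT1G13990 and a probe set of THI2.1 completed the 10 highest. AT5G06730, a peroxidase gene, rose by 2.49 (adjusted p = 0.0099), from 10.8 to 24.9 across the 9-day arrays to 49.3 to 220 at 21 days, and was not called without 21-day replicate 1 (adjusted p = 0.091). The probe sets of the thionin gene THI2.1 disagreed. The named one changed by 2.58 (adjusted p = 0.013) and read 17.8, 17.1 and 124 at 21 days, a second changed by 1.89 (adjusted p = 0.051), and the third by -0.76 (adjusted p = 0.43).

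Of the 10 lowest named genes, 4 encode GDSL-type esterase or lipase proteins, a class noticed after the values were seen and not tested as a list. AT4G18970 read 229, 194, 172 and 236 at 9 days and 13.3, 15.9 and 34.7 at 21 days. Every later array was far below every earlier one, and the age change was -3.33 (SE 0.34, adjusted p = 5.1e-08). The changes in Ler (0.49) and Col (0.09) did not pass, and the difference from wild type was -3.62 (SE 0.43, adjusted p = 2.6e-06).

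AT4G28780, a second GDSL gene, read 121, 67.4, 90.2 and 69.2 at 9 days and 6.72, 9.38 and 6.44 at 21 days. Its later arrays were below the filter value, so the change of -3.33 (SE 0.34, adjusted p = 4.3e-08) was -2.10 with 16 added. The difference from wild type was -3.10 (adjusted p = 2.3e-05). AT2G04570 fell by 2.87 (adjusted p = 2.6e-05), and AT3G16370 fell by 2.61 (adjusted p = 9.4e-07) from 178 to 241 across the 9-day arrays to 28.1 to 40.5 at 21 days. The age changes of AT2G04570 and AT3G16370 also differed from the mean of the wild types, by -2.01 (adjusted p = 0.021) and -1.69 (adjusted p = 0.010). Against 1 wild type each the difference did not pass, Col for AT2G04570 (-1.31, adjusted p = 0.26) and Ler for AT3G16370 (-1.22, adjusted p = 0.12). AT3G16370 itself fell in Ler (-1.39, adjusted p = 0.013).

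AT1G11850 had the lowest age change. It read 349, 305, 343 and 416 at 9 days and 33.0, 21.8 and 42.3 at 21 days, -3.44 (SE 0.41, adjusted p = 7.1e-07), with no overlap. It stood at -1.25 in Ler and -1.04 in Col, neither called, and its difference from wild type was -2.30 (adjusted p = 0.0072). AT1G09310, which encodes a protein of the DUF538 family, fell from 1701 to 2068 across the 9-day arrays to 316 to 454 (-2.34, adjusted p = 6.7e-07). AT4G23820, a pectin lyase-like gene, fell by 2.17 (adjusted p = 6.9e-06) and AT2G16630 by 2.45 (adjusted p = 0.00027). AT1G09310 (-1.37, adjusted p = 0.015) and AT4G23820 (-1.34, adjusted p = 0.026) fell more than the mean of the wild types, while the difference for AT2G16630 did not pass (-1.17, adjusted p = 0.19). AT1G09310 also fell in Ler (-1.27, adjusted p = 0.0087), and its difference from Ler did not pass (-1.07, adjusted p = 0.12). Likewise AT4G23820 fell in Col (-1.37, adjusted p = 0.011), and its difference from Col did not pass (-0.80, adjusted p = 0.34).

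**Figure D1:**
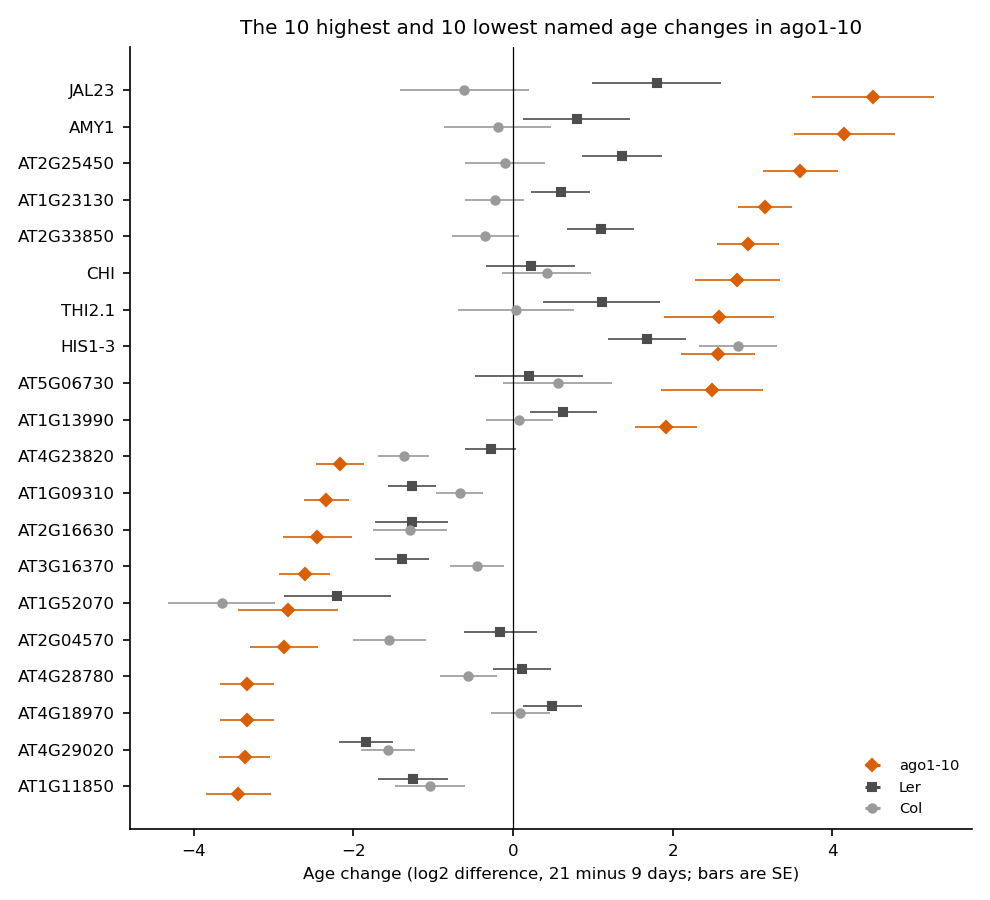
Age change (x axis, log2 difference, 21 minus 9 days) of the 10 highest and 10 lowest named genes in ago1-10 (orange), Ler (dark grey) and Col (light grey), with standard errors of the limma fit as bars. HIS1-3, AT4G29020 and AT1G52070 changed in the same direction in all 3 genotypes, and AT4G18970 stood at -3.33 in the mutant against 0.49 in Ler and 0.09 in Col.

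A normal age change was defined as a call in both Ler and Col with the same sign. There were 46 such probe sets, 20 rising and 26 falling, and 18 of them have 1 annotated gene. No probe set was called in both with opposite signs. In ago1-10 the same change was also called in 11 of the 46, against 9.87% of all tested probe sets called in the mutant in either direction. It was lost in 18, meaning not called in the mutant and with the difference between mutant and wild type called against the normal direction. It was reversed in 2, and 15 were unresolved. The difference between the age change of the mutant and the mean of the wild types was called in 399 probe sets over the whole array (6.6%), 179 higher (2.96%) and 220 lower (3.64%).

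The mutant's change had the normal sign in 32 of the 46 and was smaller than the mean wild-type change in 43. Over all probe sets the mutant's change had the sign of the mean wild-type change in 55.8%. The 46 were chosen by calls in wild type, which favours large wild-type changes, so the count of smaller ones is not independent of the choice. The wild-type arrays that chose the 46 also enter the difference, so these counts of lost changes are not independent of the choice. With changes chosen in Col alone and tested against Ler, 17 of 188 were lost, and with changes chosen in Ler alone and tested against Col, 10 of 404 were lost. Of these 13 and 7 are among the 18. The difference from Ler was called, in either direction, in 4.79% of all tested probe sets and that from Col in 3.59%. These shares count both directions and include probe sets called in the mutant, which a lost change excludes. They are therefore not a like background for the 17 of 188 or the 10 of 404, and no conclusion is drawn from them. Without 21-day replicate 3 of the mutant there were 53 normal changes (the shared spread changes with the array), of which 8 were kept, 27 lost and 3 reversed, and without 21-day replicate 2 there were 42, of which 11 were kept, 8 lost and 1 reversed.

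**Figure D2:**
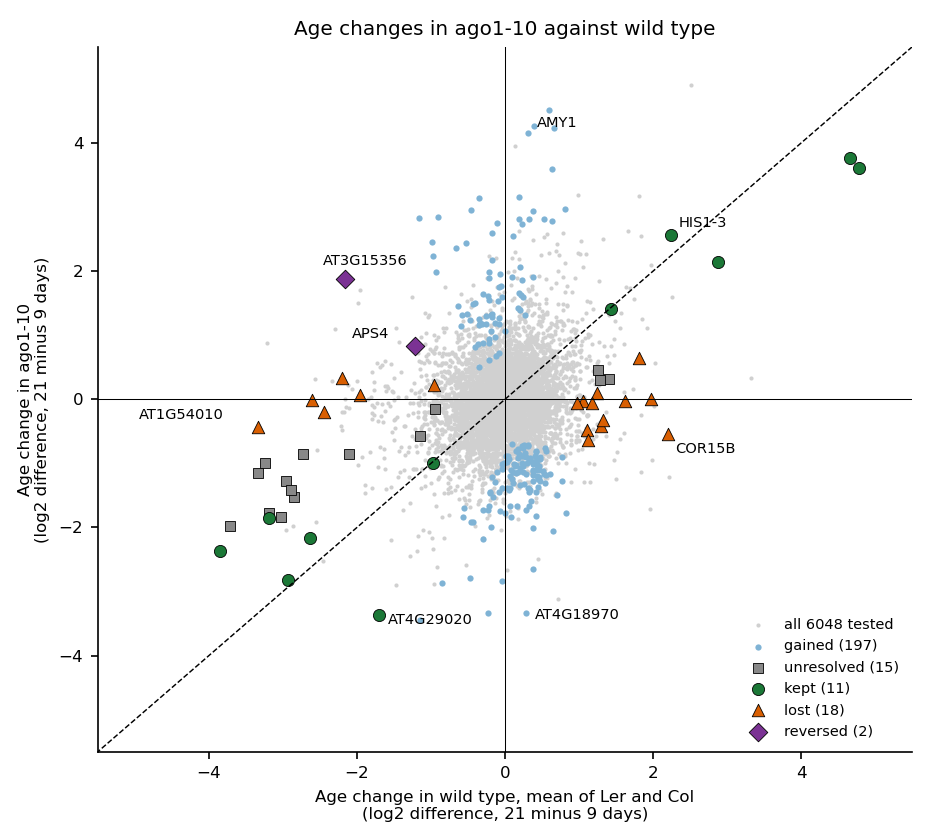
Age change in ago1-10 (y axis) against the mean age change of Ler and Col (x axis), both as log2 differences of 21 minus 9 days, for the 6048 tested probe sets, with the dashed line marking equal change. The 11 kept changes share the sign of the wild-type change, the 18 lost ones lie along a mutant change near 0, from -0.63 to 0.64, and the 2 reversed ones lie above 0 on the left.

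Among the 4 annotated genes whose normal change was kept, HIS1-3 was the rising one. It encodes a linker histone variant known to respond to drought. Its signal was 20.2, 12.9, 13.7 and 27.8 in ago1-10 at 9 days and 121, 103 and 110 at 21 days. The later arrays were alike and all above the earlier ones, and the age change of 2.57 (SE 0.46, adjusted p = 0.00034) lay between those of Ler (1.68, adjusted p = 0.035) and Col (2.82, adjusted p = 0.0016). HIS1-3 differed from the mean of the wild types by 0.32 (SE 0.58).

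The 3 annotated kept falling genes were AT4G29020, AT1G52070 and AT4G26010. AT4G29020, a glycine-rich protein gene, read 1033, 477, 833 and 925 at 9 days and 86.9, 82.9 and 60.1 at 21 days. In Ler it went from 1104, 2126 and 2291 to 462, 660 and 382, and in Col from 1266, 1384 and 1210 to 423, 375 and 510. The mutant therefore ended below every wild-type array. Its fall of 3.36 (SE 0.32, adjusted p = 1.6e-08) was larger than the wild-type falls of 1.84 and 1.57 (log2), and it was 1 of the 11 kept changes, and the only one, whose size differed from wild type (-1.65, SE 0.40, adjusted p = 0.011).

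AT1G52070, a jacalin-type lectin gene, read 106, 67.7, 66.7 and 29.2 at 9 days and 4.92, 8.70 and 10.5 at 21 days (-2.82, SE 0.63, adjusted p = 0.0034). It also fell in Ler (-2.20) and Col (-3.65), and the difference between mutant and wild type was 0.10 (SE 0.79). AT4G26010, a peroxidase gene, read 63.7, 57.8, 26.8 and 14.3 at 9 days and 2.21, 16.1 and 4.85 at 21 days. The ranges overlapped between 14.3 and 16.1, and the change was -2.36 (SE 0.75, adjusted p = 0.040) against -3.58 in Ler and -4.12 in Col. Both genes ended below or near the filter value in all 3 genotypes.

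Of the 18 lost changes 12 were normally rising and 6 normally falling, and 7 have 1 annotated gene. COR15B, which encodes a chloroplast protein that protects membranes in the cold, was the strongest lost rise. In Ler it went from 44.9, 105 and 139 to 401, 976 and 412 (2.63, adjusted p = 3e-05), and in Col from 127, 92.7 and 95.4 to 481, 363 and 268 (1.78, adjusted p = 0.0062). In ago1-10 it read 524, 360, 623 and 254 at 9 days and 310, 166 and 451 at 21 days. The 9-day mutant arrays thus already lay above all wild-type arrays of that age and the 2 mutant ages overlapped. The mutant's change was -0.54 (SE 0.35, adjusted p = 0.36) and differed from wild type by -2.75 (SE 0.44, adjusted p = 0.00035), a difference called under every alternative tried.

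FIB, which encodes the plastoglobule protein fibrillin 1a of chloroplasts, rose in Ler from 71.7, 59.5 and 61.1 to 169, 180 and 157 (1.39, adjusted p = 0.00061). In Col it rose from 116, 169 and 97.9 to 250, 216 and 362 (1.11, adjusted p = 0.010). In ago1-10 FIB read 122, 68.1, 91.8 and 99.4 at 9 days and 67.0, 124 and 119 at 21 days. The mutant ages overlapped throughout, and its 21-day arrays lay below all those of Ler (1) and Col, but overlapped with Ler (2) at 109 to 172. The mutant's change of 0.10 (SE 0.23, adjusted p = 0.86) differed from wild type by -1.15 (SE 0.29, adjusted p = 0.015), and this call ended without 21-day replicate 1 (adjusted p = 0.099). AT4G38225 stood at -0.48 in the mutant against rises of 1.01 in Ler and 1.21 in Col, a difference of -1.59 (adjusted p = 0.0084). AT2G20830 stood at -0.02 against 1.06 and 1.04, a difference of -1.07 (adjusted p = 0.017).

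The 3 annotated lost falls were hydrolase genes. AT1G54010 encodes the GDSL-like lipase GLL23. It fell in Ler from 604, 1005 and 929 to 41.5, 88.9 and 36 (-3.99, adjusted p = 4.9e-05), and in Col from 783, 656 and 717 to 139, 141 and 68.7 (-2.69, adjusted p = 0.0082). In ago1-10 it read 763, 705, 577 and 407 at 9 days and 794, 801 and 136 at 21 days. The first and second 21-day arrays stayed at the young level, and replicate 3 lay at the upper end of the Col arrays of that age. The change was -0.43 (SE 0.55, adjusted p = 0.70) and the difference from wild type 2.91 (SE 0.69, adjusted p = 0.010), which was no longer called without 21-day replicate 1 or without replicate 2 (adjusted p up to 0.063).

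BGLU15, a beta-glucosidase gene, showed the same arrays apart. It read 102, 117, 99.9 and 106 in ago1-10 at 9 days and 197, 162 and 76.6 at 21 days, whereas Ler went from 101, 94.9 and 77.7 to 10.8, 17.6 and 16.6 and Col from 42.2, 39.6 and 50.4 to 17.6, 7.89 and 10.2. All 3 mutant arrays at 21 days lay above every wild-type array of that age. The difference between mutant and wild type was 2.54 (SE 0.62, adjusted p = 0.011), and it too was not called without 21-day replicate 1 or without replicate 2 (adjusted p up to 0.053). BGLU21, a root beta-glucosidase of endoplasmic reticulum bodies, read 1212, 1446, 742 and 992 at 9 days and 1471, 1799 and 447 at 21 days, a change of -0.01 (SE 0.64) against -2.23 in Ler and -2.98 in Col. Its difference of 2.6 (adjusted p = 0.044) ended on 15 of the single-array omissions, and the gene is also a root marker.

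**Figure D3:**
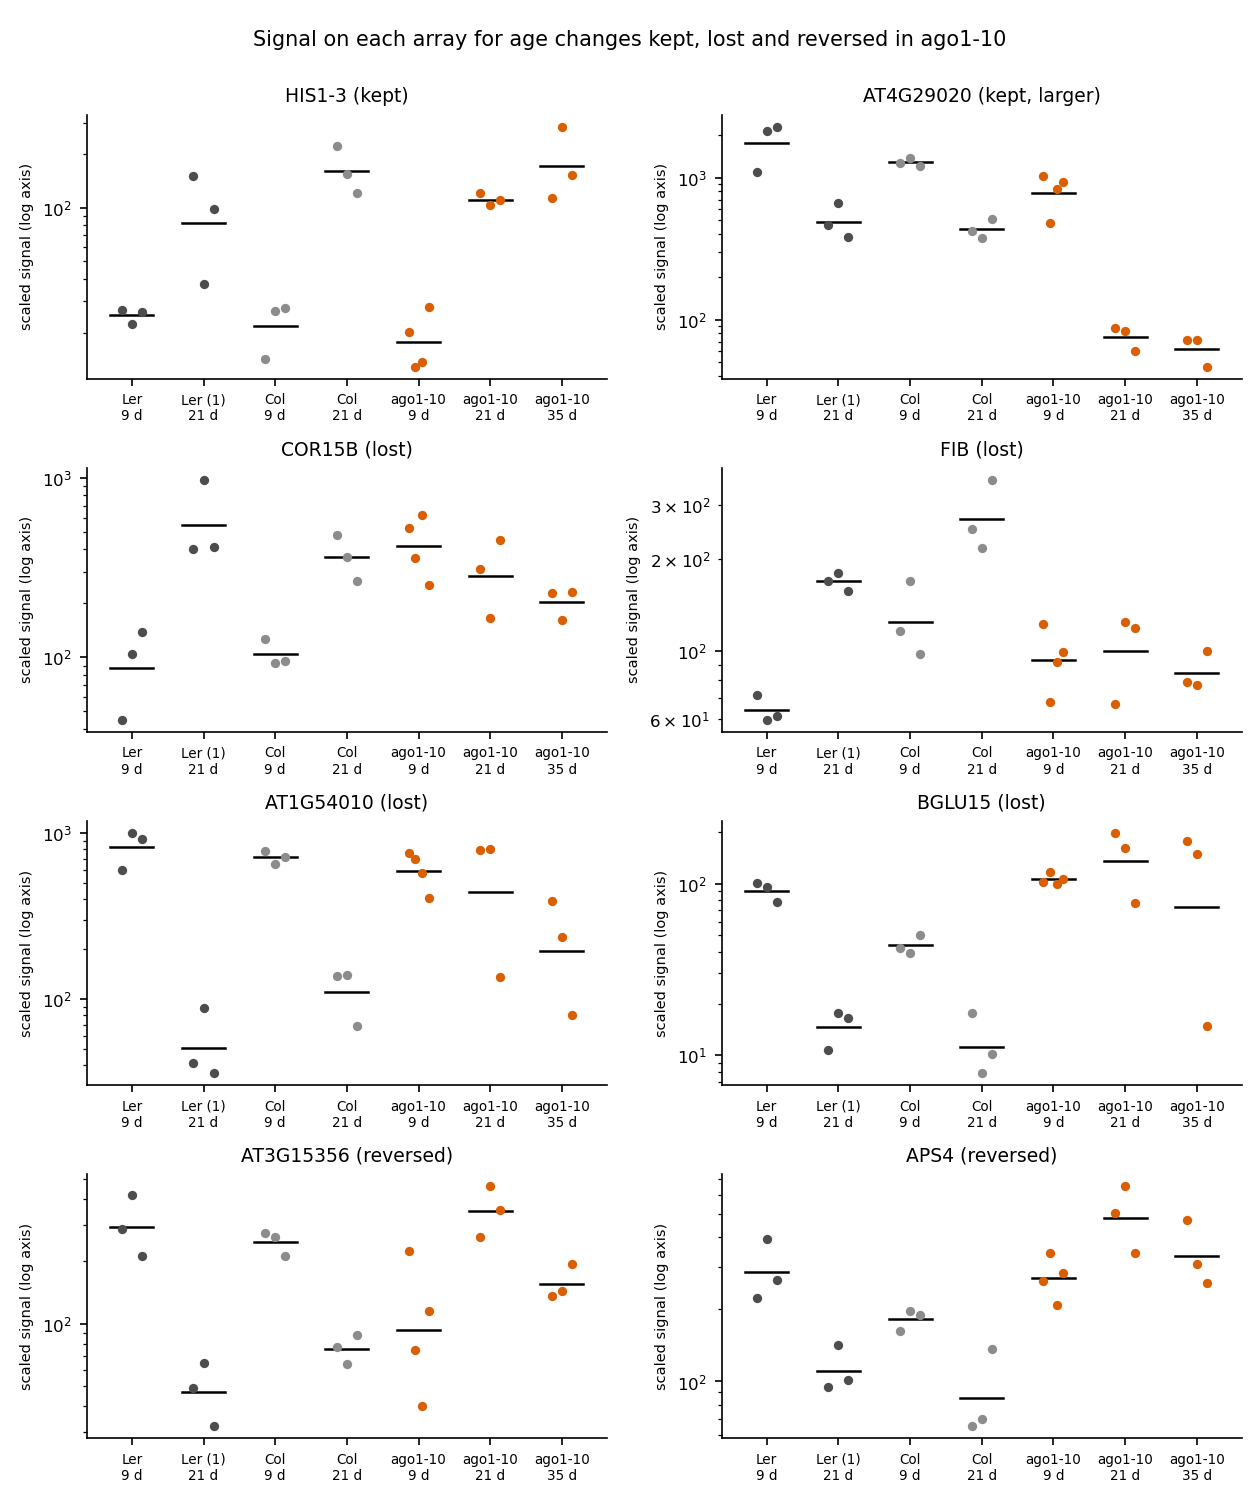
Scaled signal on each array (y axis, log scale) for 8 genes by genotype and age, with 1 point per array and a bar at the geometric mean of the group. HIS1-3 and AT4G29020 moved with age in every genotype, COR15B and FIB rose only in the wild-type panels, AT1G54010 and BGLU15 stayed high on 2 of 3 mutant arrays at 21 days, and AT3G15356 and APS4 moved up in ago1-10 and down in Ler and Col.

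Reversal was found for 2 genes. AT3G15356 encodes a protein of the legume lectin family. It fell in Ler from 285, 416 and 213 to 48.9, 65.0 and 32.1 (-2.62, adjusted p = 0.00035) and in Col from 274, 263 and 211 to 77.2, 64.0 and 88.5 (-1.69, adjusted p = 0.032). In ago1-10 it read 225, 74.9, 40 and 115 at 9 days and 262, 459 and 352 at 21 days. All later mutant arrays were above all earlier ones, and they lay at the level of young wild type. The rise of 1.88 (SE 0.43, adjusted p = 0.0040) differed from wild type by 4.04 (SE 0.53, adjusted p = 1.8e-05), and both calls held under every alternative. A reversal also needs the falls in Ler and Col to be called, and the call in Col was the narrower. Without 9-day Col replicate 2, and with the replicate block, 0 changes were reversed.

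APS4 encodes an ATP sulfurylase, the first enzyme of sulfate assimilation, and its transcript is a known microRNA target. It fell in Ler from 223, 392 and 265 to 95.1, 142 and 101 (-1.35, adjusted p = 0.0025) and in Col from 162, 196 and 190 to 65.0, 69.4 and 136 (-1.09, adjusted p = 0.021). In ago1-10 APS4 read 263, 344, 209 and 285 at 9 days and 504, 653 and 343 at 21 days. The lowest later array, replicate 3, met the highest earlier one. The rise of 0.83 (SE 0.26) passed narrowly (adjusted p = 0.035) and ended on 5 single omissions of ago1-10 arrays, in the model of only the groups compared and with the replicate block. The difference from wild type, 2.05 (SE 0.32, adjusted p = 0.0003), was called under every alternative, with values from 1.84 to 2.30. The reversal of APS4 thus rests on the narrower of these calls.

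The 15 unresolved changes all had the normal sign in the mutant and were all smaller than in wild type. The sorting favours this, since an unresolved change was called in both wild types and not in the mutant, so no conclusion is drawn from it. The 12 falling ones had a median of -1.21 in ago1-10 against -2.92 in Ler and -2.90 in Col, and none of the differences was called. Examples are AT5G39580, a peroxidase gene (-0.99 in the mutant, -3.56 in Ler and -2.92 in Col), AT4G25790, which encodes a protein of the CAP family (-0.86, -2.95 and -2.51), and ENOC, a cytosolic enolase gene (-0.15, -1 and -0.89). AT5G39580 read 20.9, 31.0 and 0.606 on the mutant arrays at 21 days, so replicate 3 lay far below the other arrays. AT2G37240 (0.30 against 1.14 and 1.44) and AT2G15830 (0.32 against 1.2 and 1.62) were unresolved rises. These 5 are all the annotated genes of the class.

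The level of the mutant was also placed along the wild-type change, with 0 at the 9-day and 1 at the 21-day mean of the wild types. For the 12 lost rises, 7 ago1-10 means at 9 days were nearer to the 21-day than to the 9-day wild type, with a median position of 0.71 at 9 days and 0.54 at 21 days. For the 6 lost falls, 5 stayed nearer to the 9-day wild type at both ages, with medians of -0.22 and -0.23. Thus 7 of the 12 lost rises were levels already high in the young mutant, COR15B among them (0.96 at 9 days). The other annotated lost rises stayed near young wild type, with FIB at 0.05 at 9 days and 0.13 at 21 days. AT4G38225 stood at 0.10 and -0.34, and AT2G20830 at -0.08 and -0.11. Lost falls were mostly levels that stayed high in the older mutant. The 5 kept rises moved from a median of -0.09 to 0.90. All 12 unresolved falls were nearer to young wild type at 9 days, and 8 were nearer to older wild type at 21 days (median 0.61).

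**Figure D4:**
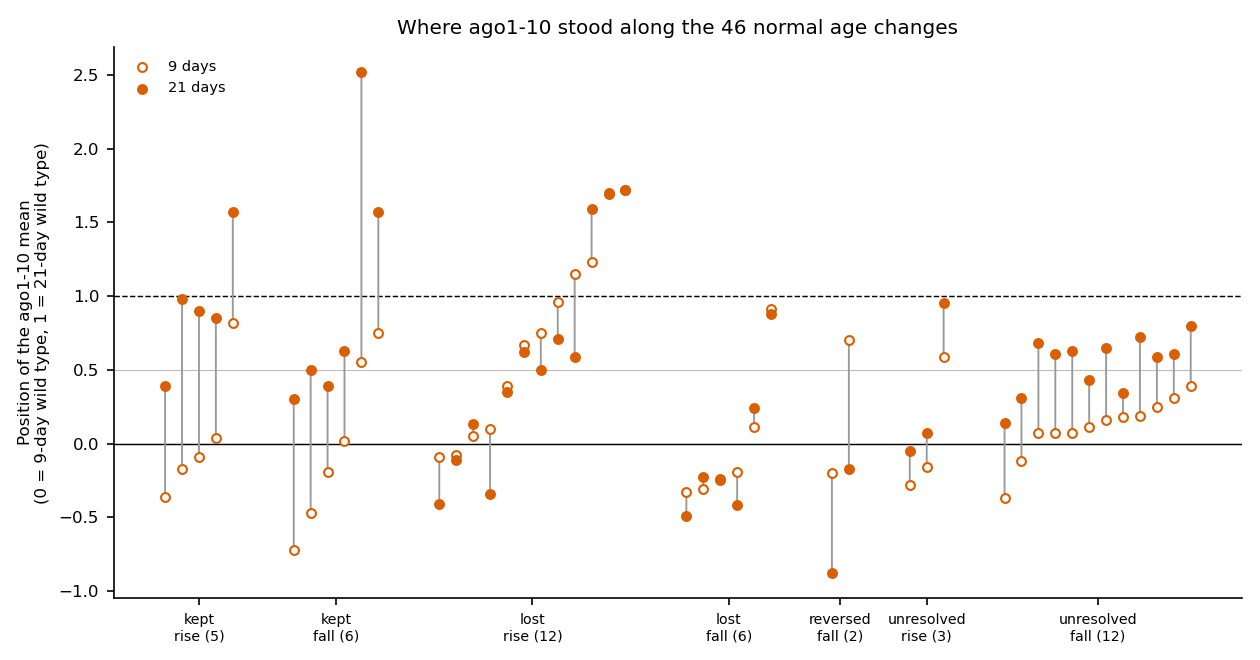
Position of the ago1-10 mean along the wild-type age change (y axis, 0 for the 9-day and 1 for the 21-day wild-type mean on the log2 scale) at 9 days (open) and 21 days (filled), for each of the 46 normal age changes grouped by class and direction. Lost rises have medians of 0.71 and 0.54, lost falls stay near -0.22, and unresolved falls move from near 0 to a median of 0.61.

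Each wild type alone gave larger sets. Of the 404 age changes in Ler, 54 were called in ago1-10 with the same sign, which is 13.4% of the Ler calls and 9.0% of the mutant's, 104 were lost against Ler and 7 were reversed. Of the 188 in Col, 23 were kept (12.2% of the Col and 3.9% of the mutant calls), 49 were lost against Col and 7 were reversed. Of the 18 losses found with both wild types, 13 were also lost against Ler alone and 7 against Col alone.

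Most of the mutant's age changes were called in neither wild type, 519 of 597. That alone does not show that they differ from wild type. For 197 of the 519 the difference was called as well, and these are named gained changes, 77 rising and 120 falling, of which 81 have 1 annotated gene. For the other 322 the difference was not called. Without 21-day replicate 2 there were 71 gained changes and without replicate 3 there were 276.

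Gained changes in both directions included levels that left the wild type and levels that approached it. Of the 120 falls 91 were farther from the wild-type mean at 21 than at 9 days and 29 nearer, with a median offset of 0.21 at 9 days and -1.21 at 21 days (log2, mutant minus wild type). Of the 77 rises 48 were farther and 29 nearer at 21 days, with medians of -0.57 and 0.94. AT4G18970 is a fall that left wild type (1.06 at 9 days and -2.56 at 21 days), and AT1G23130 a rise that approached it.

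Among other gained falls were AT4G00165, from 574, 755, 680 and 744 to 170, 229 and 365 (-1.49, adjusted p = 0.0096, difference -2.19, adjusted p = 0.0050), and AT2G17240, from 611, 364, 499 and 472 to 219, 143 and 247 (-1.27, adjusted p = 0.0044, difference -2.04, adjusted p = 0.0008). Both rose by 0.65 to 0.79 in Ler and Col without passing there. ChiC, a chitinase gene, was a gained rise (1.98, adjusted p = 0.043) with overlapping ages, 42.4, 11.7, 6.17 and 13.6 against 25.8, 74.4 and 114. Its call ended on 5 single omissions.

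YAB3, a YABBY transcription factor gene of the lower leaf side, was noticed after its values were seen. One of its probe sets read 49.6, 27.4, 42.9 and 48.5 at 9 days and 10.0, 9.64 and 12.6 at 21 days. It was a gained fall (-1.84, SE 0.44, adjusted p = 0.0061) with a difference from wild type of -1.92 (adjusted p = 0.030). The second read 75.6, 36.1, 64.8 and 56.5, then 30.2, 25.5 and 34.9 (-0.88, adjusted p = 0.037), with a difference that did not pass (-0.77, adjusted p = 0.18).

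Gene lists were then counted, 1 probe set per locus, beside the background of 4.32% higher and 5.56% lower calls and a median age change of -0.03 over all tested probe sets in the mutant. Photosynthesis and chlorophyll genes had a median below 0. Of 21 measured, 4 fell and 0 rose, 18 lay below 0, and the median was -0.51, against -0.08 in Ler and 0.27 in Col. Members were taken by the start of gene symbols, and 1 of those below 0 is POR (AT4G39920, -0.13), a tubulin-folding cofactor gene. GSA1, an enzyme of tetrapyrrole synthesis, read 251, 216, 328 and 342 at 9 days and 95.7, 144 and 128 at 21 days (-1.2, SE 0.31, adjusted p = 0.011). The photosystem subunit genes PSAN (-1.03, adjusted p = 0.041) and PSBY (-0.72, adjusted p = 0.048) and the Calvin cycle enzyme gene SBPASE (-0.94, adjusted p = 0.043) also fell. These 3 calls were narrow and each ended on 5 or more single omissions, and that of GSA1 ended without 21-day replicate 1 (adjusted p = 0.070). Differences from wild type were called for 1 of the 21, and for none of the 4 named (adjusted p from 0.14 to 0.24). The green marker sum was 7843 to 10130 at 9 days and 5191 to 7920 at 21 days in the mutant, and its part in these changes was not tested. The count of falls was 1 with no filter on dim probe sets or with the replicate block, 5 with only the groups compared, and 14, with a median of -0.91, when the 21-day group was taken by title number 2. That group holds 21-day replicates 1 and 2 and the 35-day replicate 1, which is of line MR49.

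The list of sulfur and glucosinolate genes had a negative median change in wild type and a positive one in the mutant. Of 16 measured, 2 rose and 1 fell in ago1-10, with a median of 0.47, against 1 higher and 4 lower in Ler (median -0.37) and 0 higher and 3 lower in Col (-0.42). The difference was called higher for 4 and lower for 0, against 2.96% higher calls over the array. MSRB5, a methionine sulfoxide reductase gene, read 68.7, 70.3, 43.7 and 78.6 at 9 days and 234, 191 and 134 at 21 days (1.49, adjusted p = 0.0014, difference 1.93, adjusted p = 0.0023). APS4 is the second rise. AOP1, a dioxygenase gene related to the glucosinolate enzymes, fell from 18.1 to 19.7 across the 9-day arrays to 5 to 9.59 (-1.32, adjusted p = 0.0019), with a difference that did not pass (-1.02, adjusted p = 0.070). The list was filled by the start of gene symbols, so it holds the beta-glucosidase genes BGLU15 and BGLU21, described above. They are among the higher differences, and BGLU21 is also on the root-preferring list, so these counts are not all about sulfur or glucosinolates.

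Of 6 measured microRNA targets 2 rose and 0 fell, with a median of 0.04. PHV, an HD-ZIP III gene of the upper leaf side and a known target of microRNAs, read 22.4, 20.8, 24.2 and 37.5 at 9 days and 69.5, 60.4 and 60.0 at 21 days. The groups did not overlap and the change was 1.27 (SE 0.31, adjusted p = 0.0079). Its difference from wild type did not pass (0.75, adjusted p = 0.25), with 0.68 in Ler and 0.35 in Col. APS4 is the second rise, APS3 stood at 0.24 (adjusted p = 0.58) and the plantacyanin gene ARPN at -0.74 (adjusted p = 0.22).

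Senescence and remobilisation genes rose in 2 of 9 with 0 falls (median 0.48), AMY1 and the autophagy gene ATG8F. ATG8F went from 108, 90.0, 96.0 and 124 to 204, 168 and 326 (1.10, adjusted p = 0.030), a call that ended on 4 single omissions. ATG8E did not pass (0.72, adjusted p = 0.19) although its difference from wild type did (1.44, adjusted p = 0.042). Of 10 cold, drought and ABA genes 2 rose and 0 fell. LTI30, a dehydrin gene, read 442, 164, 77.9 and 153 at 9 days and 868, 620 and 376 at 21 days (1.77, adjusted p = 0.0093, difference 1.83, adjusted p = 0.042), although the ages overlapped and the call ended without 9-day replicate 3 or without 21-day replicate 1 (adjusted p up to 0.066). RD2 rose from 143 to 251 across the 9-day arrays to 281 to 326 (0.86, adjusted p = 0.0081). COR47 (0.96, adjusted p = 0.062) and KIN2 (0.89, adjusted p = 0.054) did not pass, although the difference from wild type did for COR47 (1.60, adjusted p = 0.019), and COR15B stood at -0.54.

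Of 13 defence genes 2 rose and 1 fell. The defensin gene PDF2.1 rose from 231, 208, 104 and 116 to 627, 484 and 535 (1.81, adjusted p = 0.0068), ChiC rose as described, and the transcription factor gene WRKY22 fell from 32.1 to 63.5 across the 9-day arrays to 27.1 to 29.2 (-0.76, adjusted p = 0.037). The WRKY22 call ended on 6 single omissions. Phenylpropanoid and flavonoid genes counted 2 rises and 1 fall among 13. CCOAMT, a caffeoyl-CoA methyltransferase gene, rose (1.32, adjusted p = 0.014) as it did in Ler (1.77), and DFR, an enzyme of anthocyanin synthesis, rose from 2.11 to 9.08 to 10.1 to 18.3 (1.57, adjusted p = 0.022). The DFR change was 0.58 with 16 added, and its call ended on 4 single omissions. The serine carboxypeptidase-like gene scpl26 fell (-0.69, adjusted p = 0.049), a call that ended on 15 single omissions and in 5 other settings, while that of CCOAMT ended without 21-day replicate 2 (adjusted p = 0.077).

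Of 5 measured root-preferring genes, 3 fell in Ler (median -2.23) and 1 in Col (-0.79), while in ago1-10 0 fell and 1, JAL23, rose (median -0.01). The difference from wild type was called higher for 3 (JAL23, JAL34 and BGLU21). JAL34, a jacalin-related lectin, read 514, 581, 374 and 457 at 9 days and 447, 541 and 345 at 21 days in the mutant, against a fall from 320, 701 and 529 to 77.1, 152 and 60.2 in Ler. The mutant's change was -0.12 and the difference 1.65 (SE 0.43, adjusted p = 0.017). The list shares BGLU21, JAL31, JAL34 and NAI1 with the root marker sum, whose ages were apart in wild type and overlapped in the mutant; its part in these results was not tested.

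In the other lists few members passed. Cell wall growth had 0 calls among 14 (median -0.28), auxin 0 among 6, jasmonate and ethylene 0 among 3, heat shock 0 among 2, cell cycle and histones 0 among 2 and seed reserves 0 among 1. In cell wall growth the difference was called for 2, XTH33 higher (2.35, adjusted p = 0.016, at signals of at most 13.1 in the mutant) and EXPA15 lower (-1.48, adjusted p = 0.026). IAGLU, an auxin glucosyltransferase gene, rose in Ler (1.03) and stood at -0.67 in the mutant, a called difference (-1.49, adjusted p = 0.0079). The histone gene HTB2 had a difference of -1.11 (adjusted p = 0.044). Of 8 flower, pollen and MADS genes ATA20 alone rose (1.19, adjusted p = 0.0067), from 4.08 to 11.5 across the 9-day arrays to 17.7 to 22.9, with Ler, Ler (1) and Col at 12.5 to 27.1.

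**Figure D5:**
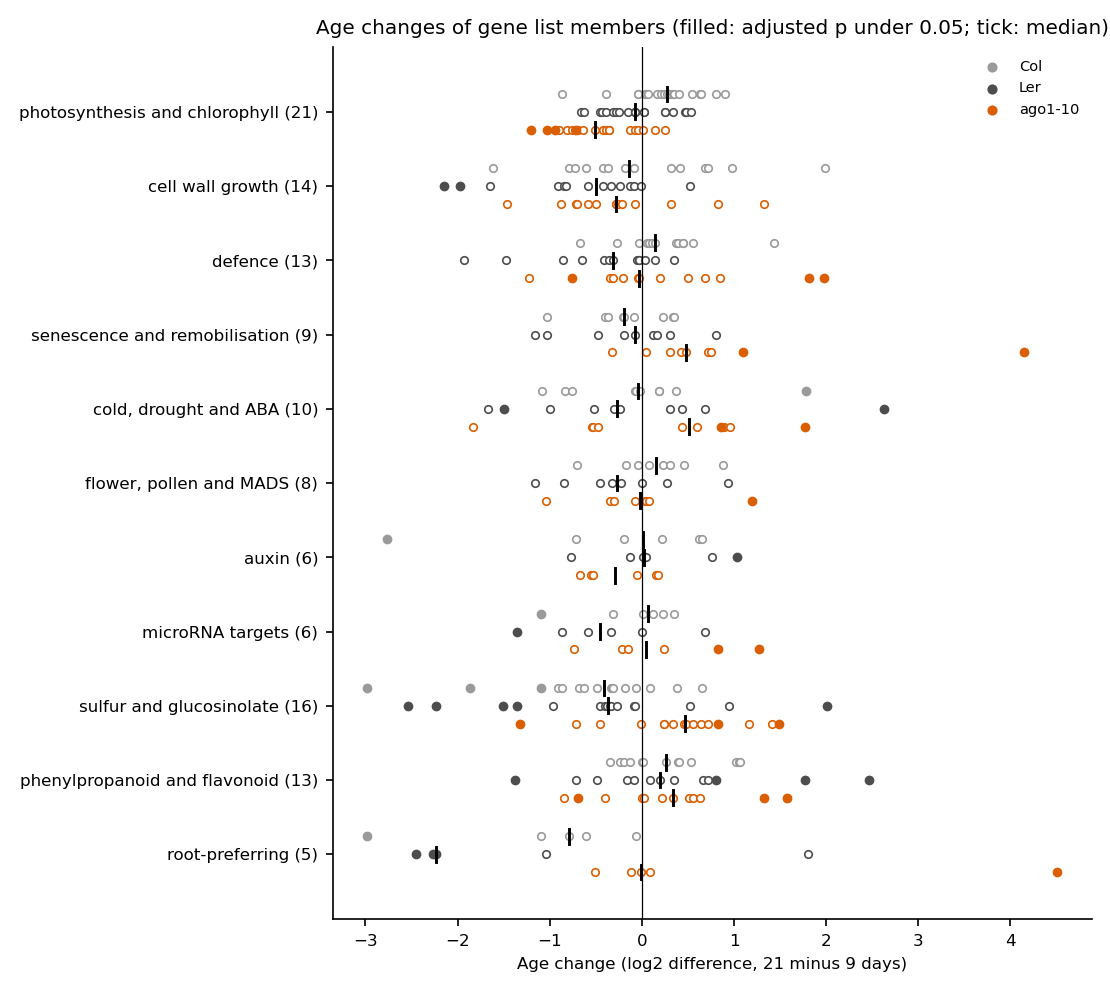
Age change (x axis, log2 difference, 21 minus 9 days) of each measured member of the lists with at least 5 members, in Col (light grey, upper row of each list), Ler (dark grey, middle row) and ago1-10 (orange, lower row), with filled points for adjusted p under 0.05 and a tick at the median. Medians in ago1-10 are -0.51 for photosynthesis, 0.47 for sulfur and glucosinolate and -0.01 for root-preferring genes, where Ler has a median of -2.23.

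The second allele, ago1-11, changed with age in 157 probe sets (2.6%), and 71 of these were called in ago1-10 with the same sign, which is 45.2% of the ago1-11 and 11.9% of the ago1-10 calls, and 1 with the opposite sign. The difference between the 2 alleles' age changes was called in 15 probe sets (0.248%), with 833 at an unadjusted p under 0.05. The ago1-11 arrays at 9 days came mostly from other lines than those at 21 days, so age and line cannot be fully told apart there. Of the 197 gained changes 28 were also called in ago1-11 with the same sign, 64 of the 77 rises and 94 of the 120 falls had the same sign there, and 8 of the 197 differed between the alleles by a call. The sign was shared with ago1-11 in 58.5% of all tested probe sets and in 76.5% of those called in ago1-10, so the gained changes, which are all called, lie near the second share.

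Named genes that differed between the alleles were led by the GDSL genes AT4G18970 and AT4G28780. AT4G18970 went in ago1-11 from 119 to 159 across the 9-day arrays to 70.9 to 116 at 21 days (-0.58), and the alleles differed by -2.75 (adjusted p = 0.0089). AT4G28780 differed by -2.61 (adjusted p = 0.0089). AT2G33180 (-1.53, adjusted p = 0.044), AT4G29030 (-2.26, adjusted p = 0.031) and MCCA, a subunit of methylcrotonyl-CoA carboxylase (2.41, adjusted p = 0.025), also differed and were named after their values were seen. None of the 18 lost changes was called in ago1-11 with the normal sign, and none differed between the alleles by a call. Over all tested probe sets only 2.6% were called in ago1-11 and 0.248% differed between the alleles, so no conclusion is drawn from these counts. In ago1-11 10 of the 18 had the normal sign. Of the 46 normal changes 35 had the normal sign in ago1-11 and 8 were called there. In ago1-11 AT3G15356 stood at 1.11 and APS4 at -0.08, and neither passed.

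The 35-day arrays, all of line MR49, were not compared by a test. The mean at 35 days was nearer to the 21-day than to the 9-day mean for 58 of the 77 gained rises and 99 of the 120 gained falls. The same share over all tested probe sets was not taken, so these counts are not read as a trait of the gained changes. AT4G29020 read 72.4, 72.1 and 46.8, and HIS1-3 read 114, 285 and 153. AT3G15356 read 136, 143 and 195, below its 21-day arrays, and APS4 read 471, 309 and 257. AT1G54010 read 394, 236 and 80.2 and BGLU15 read 177, 149 and 14.9.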

How the data were processed

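Seedling RNA was measured on 37 Affymetrix arrays. The deposited values are linear signal intensities. Per the submitters' processing notes the authors used MAS5, whose version is not stated there, so the probes of a set were already summarised. Readings written with exactly 3 decimals (7913 of 305139 cells, in 491 probe sets) were multiplied by 1000, because every other reading was at most 999.9. Arrays were scaled to share a median of 19.1, and log2(value + 1.1) was fitted with limma 3.58.1 in R 4.3.3 (lmFit, eBayes with trend), a mean per group over all 37 arrays, with Benjamini-Hochberg adjustment within each comparison. The constant 1.1 is the 10th percentile of the values and the filter of 12 the 40th, on at least 3 arrays. Tables and figures used Python 3.11.15, pandas 2.3.3, numpy 2.4.6 and matplotlib 3.10.9.

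Probe sets were named through the platform annotation and RefSeq. Of 8247, 3794 have 1 gene, 70 have several and 4383 are not listed, and only the first are named. Named genes were, 1 probe set per locus, the 10 highest and 10 lowest called age changes with arrays of the 2 ages apart and a group mean of at least 50, the 5 largest of each class with such a signal, and up to 4 members of each list with the smallest adjusted p. AT4G26010, the unresolved genes, YAB3, AT4G29030, AT2G33180 and MCCA were named after their values were seen. The members and lists were chosen with earlier results of these data known. Loss and gain needed the difference, ago1-10 minus the mean of Ler and Col, to be called. The series calls its replicates biological, but the labels do not name separate cultures, so p-values measure the spread between these arrays, and the number of arrays limits the precision. On simulated data of 6048 probe sets, the age change test recovered 95% of 4-fold and 37% of 2-fold changes with 3 false calls, and the test of the difference 86% and 25% with 6. Arrays of different ages with the same line and title letter deviated together with correlations from -0.25 to 0.26, so the letters were not taken as pairs. Alternatives were quantile normalization, other scalings, constants of 1 and 16, no filter, fewer groups, a replicate block, Ler (2), each wild type alone, title numbers and single omissions.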

Additional observations from a re-analysis of the deposited data

Results flagged for a closer look

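In THI2.1, 1 of the 4 ago1-10 arrays at 9 days stood apart, with a gap of 0.87 of the group's range on the log2 scale, above Dixon's 95% critical value for 4 arrays. It was 1 of 79 named probe sets examined, and chance flags about 1 in 20 groups.

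The age change of ago1-10 differed from the mean of the wild types, by the test of the difference itself, for 37 named genes. All values that follow are differences of age changes (log2, ago1-10 minus wild type). Among genes with a large change in the mutant, the difference was 3.91 for JAL23, 3.85 for AMY1, 2.97 for AT2G25450, 2.97 for AT1G23130, 2.57 for AT2G33850 and 2.49 for CHI. It was -2.30 for AT1G11850, -1.65 for AT4G29020, -3.62 for AT4G18970, -3.10 for AT4G28780, -2.01 for AT2G04570, -1.69 for AT3G16370, -1.37 for AT1G09310 and -1.34 for AT4G23820. Among lost changes it was -2.75 for COR15B, -1.59 for AT4G38225, -1.15 for FIB, -1.07 for AT2G20830, 2.91 for AT1G54010, 2.6 for BGLU21 and 2.54 for BGLU15. For the reversed genes it was 4.04 for AT3G15356 and 2.05 for APS4. Among gained changes and list members it was 2.90 for ChiC, -2.19 for AT4G00165, -2.04 for AT2G17240, 2.35 for XTH33, -1.48 for EXPA15, -1 for WRKY22 and 1.44 for ATG8E. It was 1.83 for LTI30, 1.60 for COR47, 1.32 for ATA20, -1.49 for IAGLU, -1.11 for HTB2, 1.93 for MSRB5 and 1.65 for JAL34.

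Against ago1-11 the age change differed for 2 of the genes named by rule, which leave out AT4G29030, AT2G33180 and MCCA, named after their values were seen, by -2.75 for AT4G18970 and -2.61 for AT4G28780.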

How the results depend on the processing

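Of the 41 named age changes in ago1-10, 25 were called under every alternative tried, 16 lost the call on some single omission and 10 in some other setting. Of 19 named differences from wild type 11, 7 and 5 did so. None of these named results changed direction. The balance of calls and some list medians near 0 did. Scaling to a trimmed mean gave 403 higher and 267 lower calls, 60.1% higher against 43.7%, 51% with quantile normalization and 44.3% with centred medians. With no filter 10 changes were lost, and with only the groups compared 1 was reversed. With quantile normalization the median age change of defence genes went from -0.03 to 0.15 and that of root-preferring genes from -0.01 to 0.08, and with a trimmed mean to 0.06 and 0.09. With Ler (2) there were 69 normal and 27 lost changes. The replicate block, by line and title letter, gave 584 age changes and 0 reversed, and the letters were not taken to pair the arrays. Taking the ago1-10 arrays with title number 2 as the 21-day group put 35-day replicate 1 of line MR49 in the place of 21-day replicate 3. This gave 966 age changes (600 lower), 863 differences, and 73 normal, 36 lost, 11 reversed and 457 gained changes. List medians were then 0.27 for defence genes and -0.19 for microRNA targets (0.04 in the main setting). The cause was not tested for any of these.

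With Ler alone there were 404 normal changes, 54 kept, 104 lost and 7 reversed, with 119 gained, and with Col alone 188, 23, 49, 7 and 128. Changes chosen in Col and tested against Ler gave 188 normal, 23 kept, 7 reversed and 119 gained, and those chosen in Ler and tested against Col gave 404, 54, 7 and 128, with 10 lost.

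Leaving out 1 array at a time gave 348 to 582 age changes over the ago1-10 arrays and 569 to 645 over the wild-type arrays. Higher calls ran from 164 to 307, lower from 174 to 366 and differences from 136 to 564. Normal changes ran from 20 to 53, kept from 7 to 12, lost from 6 to 27, reversed from 0 to 3 and gained from 71 to 276. The lowest counts of age changes, differences and gained changes came without 21-day replicate 2, and the highest counts of differences and gained changes without 21-day replicate 3. Signals under 12 limit the size of a fold change.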
